A study of Homo sapiens with 24 samples.

Results

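The insulin-like growth factor (IGF) axis was examined in hypoxia through 10 genes, namely the binding proteins IGFBP1, IGFBP2, IGFBP3, IGFBP4, IGFBP5 and IGFBP6, the receptors IGF1R and IGF2R, and the adaptors IRS1 and IRS2. They were chosen by gene symbol, with earlier results of these data known. Each is 1 of the 23106 gene rows of the count data. The IGF binding proteins are secreted proteins that hold IGF1 and IGF2 outside the cell and control how much ligand reaches its receptor. IGF1R is the receptor tyrosine kinase that passes the signal on, IRS1 and IRS2 are the docking proteins that link it to PI3K and AKT, and IGF2R takes IGF2 into the cell for degradation. IGFBP1 and IGFBP3 are known as targets of hypoxia-inducible factor (HIF), the transcription factor that cells stabilize when oxygen is low.

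Polyadenylated RNA was sequenced from 4 established human cancer cell lines: A549 from lung, HCT-116 from colon, PC3 from prostate and T47D from breast. There were for every line 3 normoxia libraries, from cells in 21% oxygen, and 3 hypoxia libraries, from cells in 0.5% oxygen for 16 hours, which makes 24 libraries in 8 groups. No group carries a transgene or a gene deletion, and each tumour type is represented by a single line. A549 and PC3 cells grew in F12K, HCT-116 cells in McCoy's 5a and T47D cells in DMEM, so that differences between lines and between media cannot be told apart except between A549 and PC3. The labels do not say whether replicates were separate cultures, and p values therefore measure the spread between these libraries, which may be technical.

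The libraries held between 22698584 and 62850747 counts. A count of 0 allows at most 3 counts in a library, which is between 0.0436 and 0.132 CPM, the counts scaled to a fixed library total, and this limit covers counting error only. The counts cover annotated genes on GRCh37. IGFBP2 (chr2:217497551-217529159, plus strand) and IGFBP5 (chr2:217536828-217560272, minus strand) lie 7668 bases apart on chromosome 2 with their 3′ ends facing, and IRS1 is on the same chromosome (chr2:227596028-227664536, minus strand). The others are IGFBP4 (chr17:38599702-38613977, plus), IGFBP6 (chr12:53491220-53496129, plus), IGF1R (chr15:99191768-99507759, plus), IGF2R (chr6:160390114-160534539, plus) and IRS2 (chr13:110405042-110438930, minus).

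The breast markers ESR1, PGR, GATA3, FOXA1 and TRPS1 together reached 2093 to 3629 CPM in T47D cells. In PC3 cells HOXB13 was between 70.6 and 126.7 CPM, but KLK2 and KLK3 were at 0 counts. In HCT-116 cells CDX2 was between 10.2 and 23.1 CPM and CDX1 was at 0 counts, and in A549 cells the 5 lung markers NKX2-1, SFTPA1, SFTPB, SFTPC and NAPSA together were at most 0.688 CPM. The leukocyte marker PTPRC and the fibroblast marker DCN were at most 17 and 8 counts in any library, while the collagen gene COL1A1 was between 9.99 and 54.9 CPM. The endothelial markers PECAM1 and CDH5 together were at 0.704 to 1.19 CPM in normoxia and 1.34 to 2.81 CPM in hypoxia in PC3 cells, where CDH5 was at 0 counts and PECAM1 reached 120 counts, and at most 0.322 CPM in the other lines. Their part in the results of PC3 cells was not tested. The library HCT-116 hypoxia replicate 2 stood apart in 1 respect. Only 2 genes reached 30 counts in a library while at 0 counts in the other 5 libraries of the same line, and both did so in that library. They were ALDH1A1, with 111 counts, and IGFBP4, with 90 counts. Both are abundant in A549 cells, where they averaged 334419 and 146790 counts, and the part of RNA from other libraries in these counts was not tested.

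The promoters of 3 of the 4 genes called upregulated in hypoxia in all 4 lines are shown first. They are given because HIF binds DNA at the core motif ACGTG or GCGTG. IGFBP2, the other gene called in all 4 lines, has 3 windows, which are not printed. IGFBP3 belongs to these genes only if its call in T47D cells, described below, is counted. Each sequence is the 250 bases before the RefSeq transcription start on GRCh38.p14, written 5′ to 3′ on the strand of the gene, and capitals mark every match to ACGTG or GCGTG on either strand. Overlapping matches were joined into 1 site.
IGFBP3, chr7:45921273-45921522, minus strand: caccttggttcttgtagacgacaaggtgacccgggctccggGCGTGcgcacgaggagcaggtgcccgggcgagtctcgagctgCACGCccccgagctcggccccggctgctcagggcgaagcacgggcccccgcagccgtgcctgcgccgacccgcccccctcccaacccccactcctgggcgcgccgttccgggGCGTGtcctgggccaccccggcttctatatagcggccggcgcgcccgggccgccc
IGF2R, chr6:159968832-159969081, plus strand: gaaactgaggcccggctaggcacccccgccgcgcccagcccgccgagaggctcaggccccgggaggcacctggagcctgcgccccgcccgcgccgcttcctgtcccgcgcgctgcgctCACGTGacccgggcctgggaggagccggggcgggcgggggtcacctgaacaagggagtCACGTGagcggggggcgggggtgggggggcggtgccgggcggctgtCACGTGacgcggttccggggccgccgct
IGFBP6, chr12:53097417-53097666, plus strand: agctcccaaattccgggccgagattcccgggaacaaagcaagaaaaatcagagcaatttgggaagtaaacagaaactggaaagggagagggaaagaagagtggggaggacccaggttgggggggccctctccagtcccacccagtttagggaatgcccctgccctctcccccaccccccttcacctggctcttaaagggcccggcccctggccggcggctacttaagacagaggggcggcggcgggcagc
The IGFBP3 promoter held 3 sites, which start at positions -209, -167 and -55 from the transcription start. The IGF2R promoter also held 3 sites, at -132, -74 and -28, and each of them reads CACGTG, in which the motif is present on both strands. The IGFBP6 promoter held no match. RefSeq windows were matched for 9 of the 10 genes, all but IGFBP1, with 3 windows for IGFBP2. Matches were present in IGF1R (5 sites), IRS1 (1 site) and 1 of the 3 windows of IGFBP2, and absent from the windows of IGFBP4, IGFBP5 and IRS2. Of all 35116 RefSeq promoter windows of this length, 43.2% held at least 1 site and 5.56% held 3 or more. These matches describe letters in the windows and not binding.

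Hypoxia against normoxia was compared in each line to ask which genes of the axis respond to low oxygen. Of the 10 genes, 9 were upregulated in A549 cells and none was downregulated. HCT-116 cells had 7 upregulated genes of the 7 that could be tested, PC3 cells had 7 of 10, and T47D cells had 5 of 9. Among all genes tested, 17.6% were upregulated in A549, 23.3% in HCT-116, 16.6% in PC3 and 6.55% in T47D cells. Because the 10 genes were chosen with earlier results of these data known, their counts beside these shares are a description only. A gene was called upregulated when the Benjamini-Hochberg adjusted p of edgeR's quasi-likelihood test, over all genes tested in the line, was under 0.05 and the fold change was over 1.2. In all, 28 of the 36 tests gave an upregulated gene and 0 gave a downregulated gene. IGFBP3 in T47D cells passed the filter on low counts through its hypoxia libraries alone, which fixed its direction, and without it 27 of 35 tests, and 4 of 8 in T47D cells, gave an upregulated gene.

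The median log2 fold change of the tested genes of the axis was 0.97 in A549, 1.42 in HCT-116, 0.56 in PC3 and 0.80 in T47D cells. Over all genes tested the medians were -0.01, -0.03, -0.01 and -0.01 in the same order. These depend on the scaling, and with scaling to total counts they were -0.13, 0.002, -0.05 and -0.12. All 3 hypoxia libraries lay above all 3 normoxia libraries for 9 genes in A549, 7 in HCT-116, 7 in PC3 and 8 in T47D cells. The share of all genes tested that separate in this way was not computed, so these counts are a description only. In T47D cells both the median and this count include IGFBP3, whose direction was fixed by the filter on low counts. By role, the binding proteins were upregulated in 18 of 20 tests, the receptors in 6 of 8 and the adaptors in 4 of 8. The count of binding proteins includes IGFBP3 in T47D cells, whose direction was fixed by the filter. These counts pool lines in which 6.55% to 23.3% of all genes tested were upregulated, and a difference between roles was not tested. IGFBP2, IGFBP6 and IGF2R were upregulated in all 4 lines, as was IGFBP3 if its call in T47D cells is counted. IGFBP1 in HCT-116 and T47D cells, and IGFBP4 and IGFBP5 in HCT-116 cells, were too low to be tested.

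**Figure D1:**
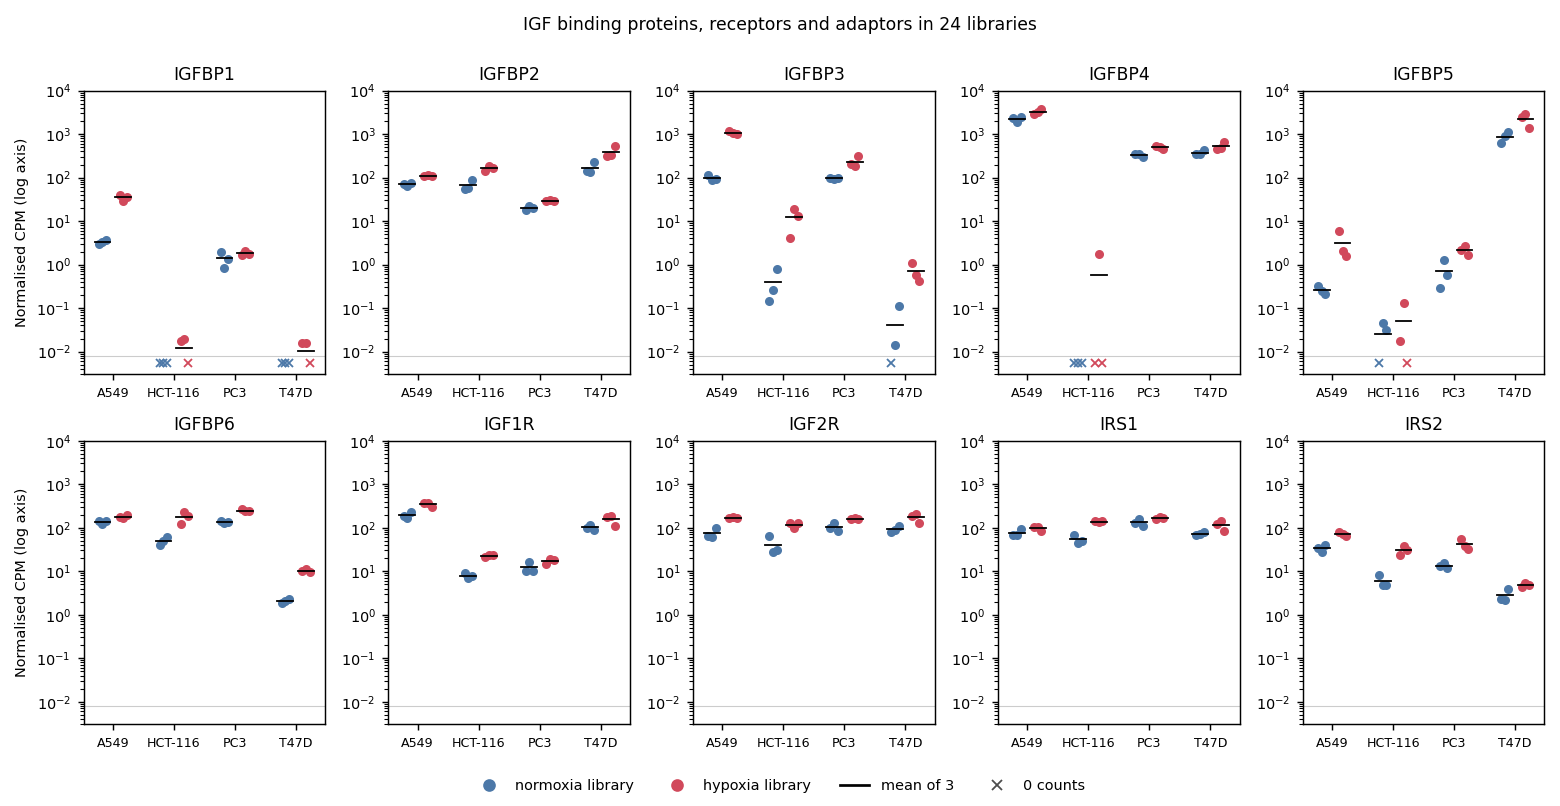
Normalised CPM on a log axis of the 10 genes in the 24 libraries. Each point is a library, blue for normoxia and red for hypoxia, the black line is the mean of 3 libraries, and crosses under the grey line are libraries with 0 counts. IGFBP3 spans from 0 counts in a normoxia library of T47D cells to 1189.9 CPM in a hypoxia library of A549 cells, whereas IGF2R lies between 27.1 and 201.6 CPM in every library.

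IGFBP3, the main carrier of IGFs in blood, showed larger fold changes than IGFBP2, IGFBP6 and IGF2R in every line. In A549 cells it stood at 116.5, 87.6 and 90.9 CPM in normoxia and at 1189.9, 1035.9 and 1018.6 CPM in hypoxia. Every hypoxia library was thus far above every normoxia library, and the increase was large (log2 3.45 ± 0.14 SE, n = 3 per state, edgeR adjusted p = 2.91e-08). HCT-116 cells had only 8, 12 and 51 counts in normoxia (0.144, 0.268 and 0.814 CPM) against 236, 997 and 301 counts in hypoxia (4.07, 19.1 and 13.3 CPM). The groups did not overlap, and the log2 fold change was 4.74 ± 0.61 SE (edgeR adjusted p = 1.30e-04). PC3 cells began at a level like that of A549 cells, at 96.8, 94.9 and 98.5 CPM, and reached 205.5, 187.0 and 307.7 CPM in hypoxia (2.33-fold, log2 1.22 ± 0.17 SE, edgeR adjusted p = 0.00174). T47D cells hardly expressed the gene, with 0, 1 and 7 counts in normoxia and 68, 37 and 23 counts in hypoxia. There the log2 fold change was 3.84 ± 0.85 SE (edgeR adjusted p = 0.0141), and the gene entered the test only through its hypoxia libraries, so that a difference was built into its selection. The call in T47D cells was lost without normoxia replicate 1 (adjusted p = 0.112), normoxia replicate 2 (0.0924) or hypoxia replicate 1 (0.0511). The log2 fold change rose to 5.79 in HCT-116 and to 5.92 in T47D cells without normoxia replicate 3 of the line.

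The increase of IGFBP3 differed between lines (interaction of line and hypoxia in 1 edgeR fit of all 24 libraries, adjusted p = 0.0024), as it did for 18.3% of all genes tested. It was larger in HCT-116 than in PC3 cells by 3.55 ± 0.62 SE on the log2 scale (edgeR adjusted p = 9.75e-04). The difference between A549 and PC3 cells was 2.19 ± 0.54 SE (adjusted p = 0.0529), and no other pair of lines passed the threshold. IGFBP3 lies on chromosome 7 (GRCh37, chr7:45951844-45961473, minus strand), 18584 bases from IGFBP1, whose 3′ end faces its own.

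IGFBP1 (chr7:45927959-45933259, plus strand), a binding protein made mainly by the liver and known to respond to fasting and insulin, rose in A549 cells and was near 0 in HCT-116 and T47D cells. In A549 cells it was at 3.03, 3.31 and 3.67 CPM in normoxia and 40.8, 28.7 and 36.0 CPM in hypoxia, with no overlap (10.5-fold, log2 3.39 ± 0.16 SE, edgeR adjusted p = 7.75e-08). In PC3 cells it was at 1.99, 0.847 and 1.34 CPM in normoxia and 1.69, 2.04 and 1.77 CPM in hypoxia. These groups overlapped, and the log2 fold change was 0.38 ± 0.33 SE (edgeR adjusted p = 0.389). HCT-116 and T47D cells had 0 counts in every normoxia library and at most 1 count in every hypoxia library, so that no change could be detected at this depth. The change was larger in A549 than in PC3 cells by 2.96 ± 0.39 SE on the log2 scale (edgeR adjusted p = 2.36e-04). The test over the 4 lines gave an adjusted p of 3.16e-04, with HCT-116 and T47D cells at or under the counting limit.

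IGFBP2, a binding protein abundant in many carcinomas, rose moderately in every line. In T47D cells, where it was highest, the normoxia libraries gave 141.0, 137.9 and 224.3 CPM and the hypoxia libraries 313.5, 325.0 and 539.5 CPM. Replicate 3 was the highest library of both states, and hypoxia exceeded normoxia within each replicate number (log2 1.16 ± 0.28 SE, edgeR adjusted p = 0.0190). HCT-116 cells rose from 56.0, 56.9 and 88.0 CPM to 143.9, 183.6 and 168.7 CPM (log2 1.19 ± 0.21 SE, edgeR adjusted p = 5.81e-04). A549 cells went from a mean of 70.3 ± 4.35 (SD, n = 3) to 112.0 ± 3.93 CPM and PC3 cells from 19.8 ± 1.99 to 29.5 ± 1.21 CPM, both without overlap. The log2 fold changes there were 0.67 ± 0.10 and 0.52 ± 0.10 SE (edgeR adjusted p = 6.43e-04 and 0.00636). The call in T47D cells was lost without normoxia replicate 1 (adjusted p = 0.153) or normoxia replicate 2 (0.102), and that in PC3 cells with 1 fit of all 24 libraries (0.0880). A difference of the increase between lines was not detected (adjusted p = 0.115), but a replicate block in the same test gave 0.0231. The test also passed in 2 of the 24 fits that left out a library. These were without HCT-116 normoxia replicate 3 (0.0342) and without T47D normoxia replicate 3 (0.0426).

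IGFBP4, which restrains IGF action until the protease PAPPA cleaves it, was the most abundant binding protein of A549 cells. Its libraries there gave 2297, 1941 and 2545 CPM in normoxia and 2852, 3154 and 3837 CPM in hypoxia (log2 0.53 ± 0.14 SE, edgeR adjusted p = 0.0105). In PC3 cells it rose from 353.4, 340.9 and 302.2 CPM to 527.1, 510.5 and 452.8 CPM (log2 0.53 ± 0.10 SE, edgeR adjusted p = 0.00531). Neither line showed overlap between states, although both increases were under 1.5-fold and both calls were lost with 1 fit of all 24 libraries (adjusted p = 0.468 and 0.465). T47D cells went from 346.2, 346.8 and 431.6 CPM to 452.4, 490.8 and 662.5 CPM, also without overlap, but the change did not pass the test (log2 0.44 ± 0.23 SE, edgeR adjusted p = 0.223). HCT-116 cells had 0 counts in 5 libraries and 90 counts in hypoxia replicate 2, the library described above. The test over the 4 lines called a difference for IGFBP4 (adjusted p = 0.0457), and without that library its adjusted p was 1. It was lost in 21 of the 24 fits that left out a library.

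IGFBP5, a binding protein that attaches to the extracellular matrix, was a T47D gene by level. T47D cells held 638.8, 898.1 and 1098 CPM in normoxia and 2430.1, 2926 and 1409.7 CPM in hypoxia, and hypoxia replicate 3 was the lowest of its group but still above every normoxia library (log2 1.28 ± 0.31 SE, edgeR adjusted p = 0.0193). A549 cells went from 16, 14 and 12 counts to 344, 105 and 77 counts. This was a log2 fold change of 3.61 ± 0.52 SE (edgeR adjusted p = 4.35e-04), on a mean of 0.261 CPM in normoxia and 3.19 CPM in hypoxia, and it was 2.80 without hypoxia replicate 1. In PC3 cells the counts were 7, 70 and 19 in normoxia and 93, 131 and 92 in hypoxia (log2 1.45 ± 0.43 SE, edgeR adjusted p = 0.0291), and HCT-116 cells had at most 7 counts in any library. Leaving out a library ended the call in T47D cells for normoxia replicates 1 and 2 (adjusted p = 0.160 and 0.0790) and hypoxia replicates 1 and 2 (0.0522 and 0.0562). It ended the call in PC3 cells for normoxia replicates 1 and 3 (0.0660 and 0.0622) and hypoxia replicates 1 and 2 (0.0727 and 0.102), while without normoxia replicate 2 the log2 fold change there was 2.20, and with 1 fit of all 24 libraries the adjusted p there was 0.0598. A difference between lines was not detected (edgeR adjusted p = 0.0551). The same test passed with a replicate block (0.0310), RLE factors (0.0466) or no filter (0.0306), and in 8 of the 24 fits that left out a library.

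IGFBP6, which prefers IGF2 over IGF1, had the smallest interaction p of the 10 genes (adjusted p = 4.87e-05). T47D cells had the lowest level and the largest increase, from 1.86, 2.11 and 2.26 CPM to 10.0, 11.2 and 9.51 CPM (4.67-fold, log2 2.22 ± 0.24 SE, edgeR adjusted p = 1.38e-04). HCT-116 cells followed, from 40.6, 49.0 and 60.7 CPM to 124.0, 228.5 and 183.4 CPM (log2 1.72 ± 0.24 SE, edgeR adjusted p = 1.69e-04). PC3 and A549 cells began at similar levels, with means of 136.2 ± 4.48 and 133.8 ± 13.1 CPM, and rose to 245.5 ± 15.9 and 181.1 ± 12.3 CPM (SD, n = 3). The log2 fold changes there were 0.80 ± 0.09 and 0.43 ± 0.11 SE (edgeR adjusted p = 0.00105 and 0.0105). The increase was larger in T47D than in A549 cells by 1.86 ± 0.25 SE and larger than in PC3 cells by 1.45 ± 0.25 SE on the log2 scale (edgeR adjusted p = 1.19e-04 and 0.00152). HCT-116 cells likewise exceeded A549 cells by 1.40 ± 0.24 and PC3 cells by 0.98 ± 0.24 SE (edgeR adjusted p = 0.00102 and 0.01002), whereas the other two pairs did not pass the threshold. The call in A549 cells was lost without normoxia replicate 2 (adjusted p = 0.0617) and with 1 fit of all 24 libraries (0.0799), and no left-out library ended the call in the other 3 lines.

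**Figure D2:**
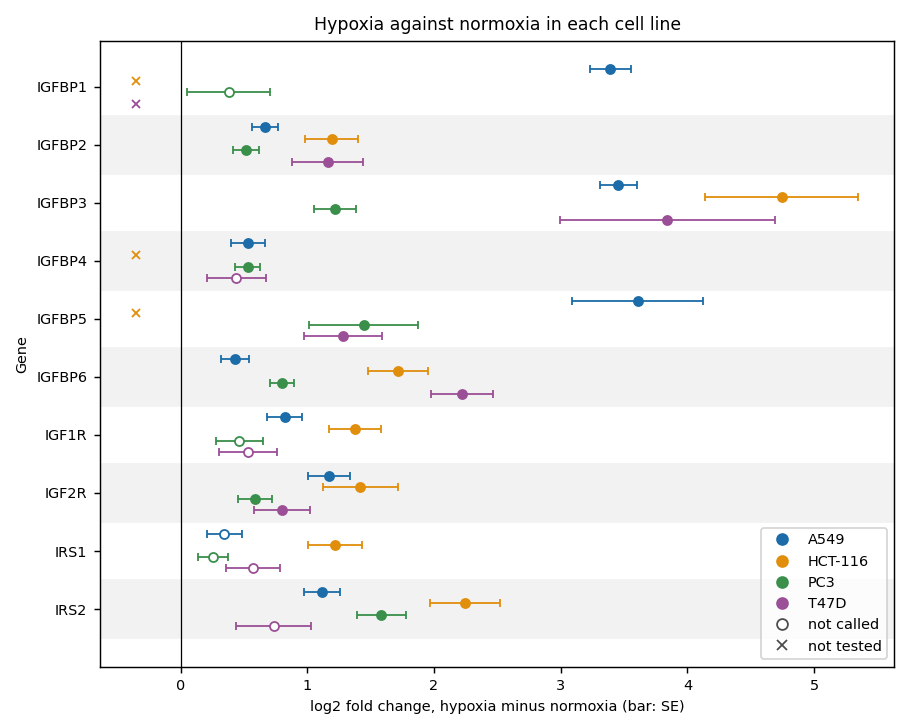
Log2 fold change of hypoxia minus normoxia for each gene (rows) in each line (colours), with the standard error as a bar. Filled points were upregulated, open points did not pass the test and crosses were not tested. All points lie to the right of 0, from 0.26 for IRS1 in PC3 cells to 4.74 for IGFBP3 in HCT-116 cells.

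The binding proteins differ in which line uses them, and levels were therefore also compared per length, as reads per kilobase of the GENCODE canonical transcript at a fixed library total (RPKM). In normoxic A549 cells IGFBP4 made up 81.6% ± 1.15 (SD, n = 3) of the summed RPKM of the 6 binding proteins and IGFBP6 11.3% ± 0.54. HCT-116 cells expressed practically a pair of them, IGFBP6 (52.9% ± 2.92) and IGFBP2 (46.9% ± 2.88). In PC3 cells IGFBP4 (43.4% ± 2.20) and IGFBP6 (41.5% ± 1.75) shared the larger part, and in T47D cells IGFBP4 (39.8% ± 3.41), IGFBP5 (32.4% ± 3.81) and IGFBP2 (27.2% ± 2.74) did.

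The summed RPKM of the 6 genes was 1256 ± 155 in normoxia and 2196 ± 211 in hypoxia in A549 cells. HCT-116 cells gave 100.4 ± 23.2 and 310.5 ± 72.8, PC3 cells 346.5 ± 11.8 and 596.3 ± 21.4, and T47D cells 431.6 ± 89.9 and 893.0 ± 57.3 (SD, n = 3). The sum was higher in every hypoxia library than in every normoxia library of the same line, which is given as a description without a test. The share that moved most was that of IGFBP3 in A549 cells, from 3.01% ± 0.49 to 19.0% ± 3.15, while the share of IGFBP4 there went from 81.6% to 67.5% ± 4.06. In T47D cells the share of IGFBP4 went from 39.8% to 27.1% ± 4.87, and that of IGFBP5 ranged from 24.6% to 50.2% over the hypoxia libraries. Bulk RNA cannot tell a change in every cell from a change in a share of the cells.

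**Figure D3:**
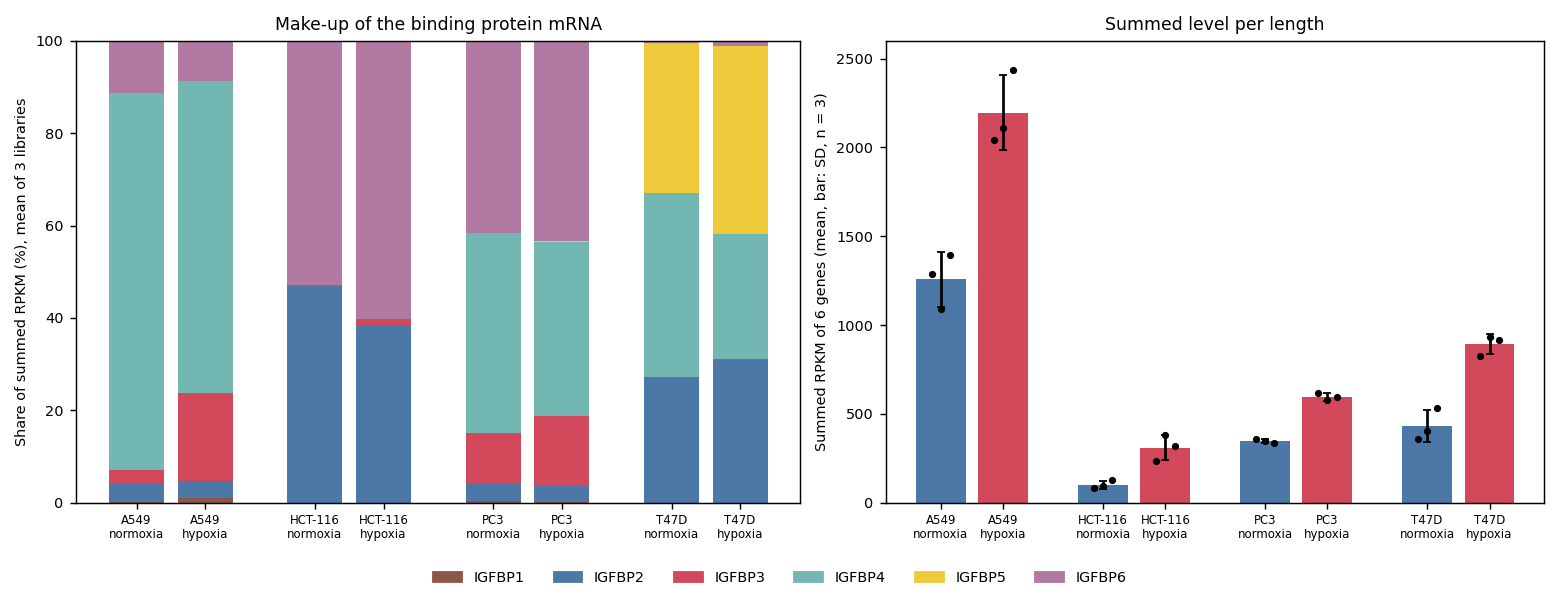
Left, mean share (%) of each binding protein in the summed RPKM of the 6 binding proteins, by line and oxygen state. Right, the summed RPKM itself, with bars for the mean of 3 libraries, error bars for the SD and points for libraries. IGFBP3 grows from 3.01% to 19.0% of the sum in A549 cells, and the hypoxia bar is above the normoxia bar in each line.

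Among the receptors, IGF2R responded in every line and IGF1R in A549 and HCT-116 cells. IGF2R, which also sorts lysosomal enzymes by their mannose 6-phosphate tag, rose in A549 cells from 63.2, 62.0 and 99.8 CPM to 169.3, 173.9 and 166.1 CPM (log2 1.17 ± 0.16 SE, edgeR adjusted p = 3.84e-04). HCT-116 cells gave 63.2, 27.1 and 30.8 CPM in normoxia and 128.3, 97.0 and 128.8 CPM in hypoxia (log2 1.42 ± 0.30 SE, edgeR adjusted p = 0.00180). Normoxia replicate 1 was the highest of its group there, and without it the log2 fold change was 1.98. In PC3 cells IGF2R went from 100.6, 129.5 and 83.0 CPM to 162.0, 166.8 and 157.5 CPM (log2 0.59 ± 0.13 SE, edgeR adjusted p = 0.00992). T47D cells went from 79.6, 90.2 and 111.7 CPM to 186.9, 201.6 and 129.3 CPM (log2 0.80 ± 0.22 SE, edgeR adjusted p = 0.0333). No group overlapped in any line, but the call in T47D cells was lost without normoxia replicate 1 or 2 (adjusted p = 0.193 and 0.119), without hypoxia replicate 1 or 2 (0.114 and 0.124), and with scaling to total counts (0.0587). In PC3 cells it was lost with 1 fit of all 24 libraries (0.114). The interaction test gave an adjusted p of 0.198 for IGF2R. It passed in 1 of the 24 fits that left out a library, the fit without HCT-116 normoxia replicate 1 (0.0104).

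IGF1R showed the widest range of the receptors, from 7.08 CPM in a normoxia library of HCT-116 cells to 373.3 CPM in a hypoxia library of A549 cells. A549 cells rose from 186.3, 169.8 and 235.2 CPM to 370.2, 373.3 and 304.8 CPM (log2 0.82 ± 0.14 SE, edgeR adjusted p = 0.00113). HCT-116 cells rose from 9.05, 7.08 and 7.71 CPM to 20.9, 23.4 and 23.1 CPM (log2 1.38 ± 0.20 SE, edgeR adjusted p = 2.13e-04). In both lines the states did not overlap. PC3 cells gave 10.4, 16.4 and 9.94 CPM in normoxia and 14.7, 19.4 and 18.4 CPM in hypoxia, with overlap (log2 0.46 ± 0.19 SE, edgeR adjusted p = 0.0789). With a replicate block, the change in PC3 cells passed the test (log2 0.49 ± 0.14 SE, edgeR adjusted p = 0.0236), as it did without normoxia replicate 2 (0.00482) and with DESeq2 (0.0472). T47D cells gave 101.1, 112.8 and 90.8 CPM and then 172.9, 182.9 and 112.3 CPM (log2 0.53 ± 0.23 SE, edgeR adjusted p = 0.131), and the adjusted p was 0.0171 without hypoxia replicate 3 and 0.0212 with 1 fit of all 24 libraries. The change differed between lines (adjusted p = 0.0429), being larger in HCT-116 than in PC3 cells by 0.99 ± 0.28 SE and than in T47D cells by 0.88 ± 0.27 SE on the log2 scale (edgeR adjusted p = 0.0205 and 0.0447). That interaction call was lost in 19 of the 24 fits that left out a library, with adjusted p values from 0.0275 to 0.136 over the 24 fits, and with RLE factors (0.0511), total counts (0.0674) or no filter (0.0552).

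The adaptors differed from each other. IRS2, the adaptor that carries insulin signals in the liver and the pancreatic beta cell, rose in A549 cells from 33.6, 27.2 and 39.6 CPM to 81.5, 70.9 and 65.7 CPM (log2 1.11 ± 0.14 SE, edgeR adjusted p = 2.31e-04). It rose in HCT-116 cells from 8.17, 4.74 and 4.80 CPM to 23.4, 38.1 and 30.5 CPM (log2 2.24 ± 0.27 SE, edgeR adjusted p = 1.04e-04). PC3 cells went from 13.4, 15.7 and 11.6 CPM to 56.2, 37.4 and 32.6 CPM (log2 1.58 ± 0.19 SE, edgeR adjusted p = 0.00123). None of these lines showed overlap. T47D cells, with 2.30, 2.19 and 3.84 CPM in normoxia and 4.37, 5.37 and 4.86 CPM in hypoxia, showed no overlap either but did not pass the test (log2 0.74 ± 0.30 SE, edgeR adjusted p = 0.113), although the adjusted p was 0.0325 without normoxia replicate 3 and 0.0241 with 1 fit of all 24 libraries. The increase differed between lines (adjusted p = 0.0129) and was larger in HCT-116 than in T47D cells by 1.57 ± 0.35 SE and than in A549 cells by 1.26 ± 0.34 SE on the log2 scale (edgeR adjusted p = 0.00880 and 0.0157).

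IRS1, the adaptor best known from muscle and breast cells, passed the test in HCT-116 cells. There it rose from 69.1, 45.6 and 49.2 CPM to 140.8, 134.1 and 141.1 CPM (log2 1.22 ± 0.21 SE, edgeR adjusted p = 5.21e-04). The means in normoxia and hypoxia were 76.5 ± 14.6 and 97.6 ± 9.92 CPM in A549, 133.9 ± 25.4 and 165.5 ± 10.3 CPM in PC3, and 73.5 ± 6.04 and 115.6 ± 29.4 CPM in T47D cells (SD, n = 3). States overlapped in A549 and PC3 but not in T47D cells, and none of these changes passed the test (log2 0.35, 0.26 and 0.57, edgeR adjusted p = 0.0741, 0.123 and 0.0951). Leaving out a library made the change pass in each of the 3 lines, namely normoxia replicate 3 (adjusted p = 0.00791) or hypoxia replicate 3 (0.0346) in A549, normoxia replicate 2 (0.0138) in PC3, and hypoxia replicate 3 (0.0106) in T47D cells. It also passed in A549 cells with DESeq2 (0.0485) and in T47D cells with 1 fit of all 24 libraries (0.0129). The difference between lines was tested itself (adjusted p = 0.0202), and the change was larger in HCT-116 than in A549 cells by 0.99 ± 0.26 SE and than in PC3 cells by 1.04 ± 0.26 SE (edgeR adjusted p = 0.0137 and 0.0116). The difference of 0.69 ± 0.26 SE from T47D cells did not pass (adjusted p = 0.0904). The call over the 4 lines was lost in 4 of the 24 fits that left out a library, which were those without HCT-116 normoxia replicate 2 (0.0795), HCT-116 hypoxia replicate 3 (0.0520), PC3 normoxia replicate 2 (0.0530) and PC3 hypoxia replicate 1 (0.0522).

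Levels in normoxia were compared between lines next, in the edgeR fit of all 24 libraries. Of the 10 genes, 9 differed between A549 and HCT-116, 7 between A549 and PC3, 8 between A549 and T47D, 10 between HCT-116 and PC3, 9 between HCT-116 and T47D and 8 between PC3 and T47D cells. The same calls covered 65.0%, 60.5%, 67.7%, 66.0%, 69.0% and 68.1% of all genes tested. HCT-116 cells were the lowest line for IGFBP5, IGF1R, IGF2R and IRS1 and had no count of IGFBP4. Like T47D cells, they had no count of IGFBP1 either. A549 cells were the highest for IGFBP1, IGFBP4, IGF1R and IRS2.

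IGFBP1 was 2.46-fold higher in A549 than in PC3 cells (edgeR adjusted p = 3.95e-04). Against the limit of 3 counts per library, A549 cells were at least 49-fold higher than HCT-116 and at least 47-fold higher than T47D cells, and PC3 cells at least 20-fold higher than either. IGFBP2 was 2.39-fold higher in T47D than in A549 cells (edgeR adjusted p = 8.09e-06), A549 and HCT-116 cells did not pass the test (adjusted p = 0.790), and HCT-116 cells were 3.37-fold above PC3 cells (adjusted p = 8.82e-08). IGFBP3 was not distinguished between A549 and PC3 cells, with means of 98.3 ± 15.8 and 96.7 ± 1.79 CPM (adjusted p = 0.976). HCT-116 cells at 0.409 ± 0.356 CPM were above T47D cells at 0.0420 ± 0.0606 CPM (edgeR adjusted p = 0.00317). IGFBP4 was 6.03-fold higher in A549 than in T47D cells (edgeR adjusted p = 6.30e-05), T47D and PC3 cells were not distinguished (adjusted p = 0.757), and PC3 cells were at least 4955-fold above HCT-116 cells.

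IGFBP5 fell from 878.3 ± 230.3 CPM in T47D to 0.715 ± 0.516 CPM in PC3 cells, a difference of 10.11 ± 0.56 SE on the log2 scale (edgeR adjusted p = 3.33e-14), then to A549 cells at 0.261 ± 0.050 CPM (adjusted p = 0.0227, or 0.0530 by DESeq2) and HCT-116 cells at 0.0255 ± 0.0230 CPM (0.00974). IGFBP6 was not distinguished between PC3 and A549 cells (adjusted p = 0.920). A549 cells were 2.67-fold above HCT-116 cells and these were above T47D cells by 4.59 on the log2 scale (edgeR adjusted p = 1.16e-07 and 4.66e-16). IGF1R was ordered A549, T47D, PC3 and HCT-116, and each neighbour differed, by 1.94-fold, 8.26-fold and 1.55-fold (edgeR adjusted p = 1.09e-04, 2.40e-12 and 0.00771). For IGF2R only HCT-116 cells stood apart, being lower than A549 cells by 0.89 ± 0.25 SE on the log2 scale (edgeR adjusted p = 0.00312), whereas PC3, T47D and A549 cells were not distinguished. IRS1 was 1.75-fold higher in PC3 than in A549 cells (edgeR adjusted p = 5.72e-04), A549 and T47D cells were not distinguished (0.793), and T47D cells were 1.34-fold above HCT-116 cells (0.0441). IRS2 was ordered A549, PC3, HCT-116 and T47D, with folds of 2.47, 2.29 and 2.12 between neighbours (edgeR adjusted p = 5.60e-05, 1.65e-04 and 5.82e-04).

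The rest of the insulin and IGF pathway was followed through 47 further genes, grouped by role. This list was also chosen with earlier results of these data known, so its counts are a description only. In A549 cells 18 of the 40 tested were upregulated and 0 downregulated, in HCT-116 cells 22 and 2 of 35, in PC3 cells 19 and 0 of 36, and in T47D cells 6 and 0 of 39. Their median log2 fold change was 0.31, 0.73, 0.33 and 0.25 in the same order. Of all genes tested in these lines, 17.6%, 23.3%, 16.6% and 6.55% were upregulated and 17.8%, 27.0%, 15.7% and 6.69% downregulated. The count of upregulated pathway genes was less steady in PC3 and T47D cells. In PC3 cells it was 12 without normoxia replicate 1, 8 without hypoxia replicate 1 and 11 without hypoxia replicate 2. In T47D cells it was 1 and 2 without normoxia replicates 1 and 2, 10 without normoxia replicate 3 and 3 without hypoxia replicate 2. With 1 fit of all 24 libraries it was 6 in PC3 and 12 in T47D cells. The 2 downregulated genes of HCT-116 cells were GRB14 and SH2B1, which encode adaptors of the insulin receptor. All 3 FOXO genes were upregulated in A549 and in HCT-116 cells and 2 of 3 in PC3 and T47D cells. The 9 genes of PI3K and AKT gave 3, 6, 5 and 0 upregulated genes in A549, HCT-116, PC3 and T47D cells, with 9, 9, 9 and 8 tested, and the 10 brakes on the pathway gave 3, 5, 4 and 1. In T47D cells these counts of 0 of 8 and 1 of 10 stand against 6.55% of all genes.

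Of the ligands, IGF1 had at most 6 counts in any library and INS, which encodes insulin, 0 counts in all 24. IGF2 was the ligand expressed, and it was upregulated in all 4 lines. It went from a mean of 13.3 ± 7.41 to 35.003 ± 1.39 CPM in A549, from 13.3 ± 0.82 to 29.8 ± 2.66 CPM in HCT-116, from 5.37 ± 1.57 to 21.5 ± 10.9 CPM in PC3 and from 1.60 ± 0.37 to 6.99 ± 2.16 CPM in T47D cells (SD, n = 3). The log2 fold changes were 1.39, 1.05, 1.94 and 2.04 (edgeR adjusted p = 0.00276, 5.86e-04, 0.00375 and 0.00231), with no overlap in any line. IGF2 shares 333 exonic bases with the antisense gene IGF2-AS, and since the strand setting of the counting is not given in the sources used here, its counts are uncertain to that extent.

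INSR, the insulin receptor, was upregulated in A549 (log2 0.90 ± 0.20 SE) and HCT-116 cells (1.19 ± 0.20 SE, edgeR adjusted p = 0.00525 and 4.79e-04). In PC3 and T47D cells its log2 fold changes were 0.08 ± 0.11 and 0.81 ± 0.28 SE (edgeR adjusted p = 0.622 and 0.0690). The change in T47D cells passed with a replicate block (0.0471), with DESeq2 (0.0310), with 1 fit of all 24 libraries (0.00500) and without hypoxia replicate 3 (0.00860). IGFBP7, a related protein of low IGF affinity, was at 69.7 ± 3.46 CPM in normoxia and 60.4 ± 12.2 CPM in hypoxia in A549 cells (edgeR adjusted p = 0.242, or 0.0251 without hypoxia replicate 3). It was at most 1.13 CPM in T47D cells and at most 1 count in every HCT-116 and PC3 library, and it shares 260 exonic bases with POLR2B on the other strand.

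Besides IGF2, the genes upregulated in all 4 lines were PHLPP1, a phosphatase that removes activating phosphate from AKT, and the transcription factors FOXO3 and FOXO4, which AKT keeps out of the nucleus. The log2 fold changes in A549, HCT-116, PC3 and T47D cells were 0.88, 1.76, 0.77 and 0.84 for PHLPP1, 1.41, 2.08, 0.49 and 1.33 for FOXO3, and 0.98, 1.14, 0.73 and 1.25 for FOXO4. The calls of IGF2 held in every alternative and with every library left out, unlike those of the other 3 genes. Leaving out T47D normoxia replicate 1 ended the T47D calls of PHLPP1, FOXO3 and FOXO4 (adjusted p = 0.140, 0.0785 and 0.128), and leaving out normoxia replicate 2 ended those of PHLPP1 and FOXO4 (0.0945 and 0.0774). Hypoxia replicate 1 ended that of PHLPP1 (0.0724) and hypoxia replicate 2 those of PHLPP1 and FOXO4 (0.0890 and 0.0754). In PC3 cells the call of FOXO3 was lost without normoxia replicate 1 (0.0894) or hypoxia replicate 1, 2 or 3 (0.0831, 0.0982 and 0.0729), and that of FOXO4 without hypoxia replicate 1 (0.0815). Both were also lost there with 1 fit of all 24 libraries (0.138 and 0.0848). In A549 cells FOXO4 was lost without normoxia replicate 2 (0.0578) or hypoxia replicate 1 (0.0735).

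The smallest interaction p values of the 47 genes belonged to STC2, GRB10 and TRIB3 (edgeR adjusted p = 1.8e-04, 3.89e-04 and 0.00392). STC2, a stanniocalcin that inhibits the IGFBP protease PAPPA, changed by 1.81 in A549, 2.73 in HCT-116, 0.42 in PC3 and 1.06 in T47D cells on the log2 scale. It did not pass the test in PC3 cells (edgeR adjusted p = 0.0622), where normoxia was at 547.7 ± 130.3 CPM, but passed there with a replicate block (0.0242), DESeq2 (0.0266), no filter (0.0446) or without normoxia replicate 2 (0.00745). Its call in T47D cells was lost without normoxia replicate 1 or 2 (0.161 and 0.0731) and without hypoxia replicate 1 or 2 (0.0595 and 0.0769). GRB10, an adaptor that dampens insulin and IGF receptors, and TRIB3, a pseudokinase that binds AKT, were upregulated in A549 (1.40 and 1.35), HCT-116 (0.95 and 0.89) and PC3 cells (0.67 and 0.42). The call of TRIB3 in PC3 cells was lost without normoxia replicate 1 (0.0734), without hypoxia replicate 1 (0.0752) and with 1 fit of all 24 libraries (0.0829). In T47D cells their log2 fold changes were -0.16 ± 0.19 and 0.05 ± 0.23 SE (edgeR adjusted p = 0.615 and 0.896).

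**Figure D4:**
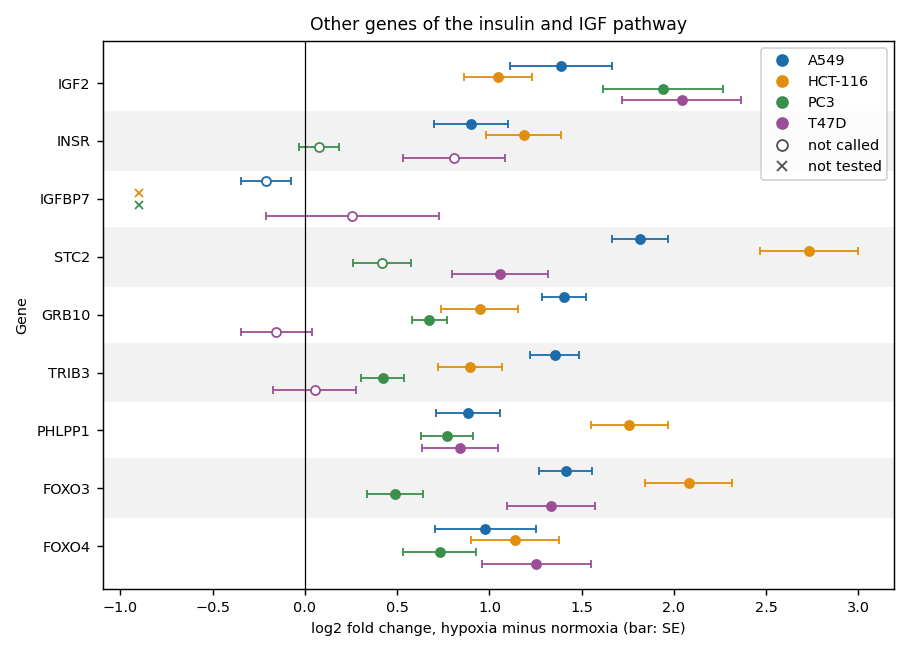
Log2 fold change of hypoxia minus normoxia, with the standard error as a bar, for 9 other genes of the insulin and IGF pathway (rows) in the 4 lines (colours). Filled points passed the test, open points did not and crosses were not tested. IGF2, PHLPP1, FOXO3 and FOXO4 are filled in all 4 lines, whereas GRB10 and TRIB3 lie near 0 in T47D cells.

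The genes whose log2 CPM over the 24 libraries was most like that of each member were found among genes with a mean log2 CPM over 1. These correlations describe libraries that share lines and oxygen states and are given without a test. After the mean of each line was subtracted, IGFBP3 was most like BCKDHA (Pearson r = 0.977) and ANGPTL4 (0.967), IGFBP6 most like ACSS2 (0.978) and EGLN1 (0.968), and IGFBP2 most like TWF2 (0.979) and UBXN6 (0.973). IGFBP1 was most like F3 (0.867) and PLIN2 (0.862), IGFBP4 most like TM4SF1 (0.970) and NNT (0.960), and IGFBP5 most like YPEL2 (0.882) and MAST1 (0.857). IGF1R and IRS1 shared the nearest gene, TLN1 (0.966 and 0.984), followed by ARHGEF18 (0.964) and MAP4 (0.978). IGF2R was most like POLR2A (0.978), and IRS2 most like SEC14L1 (0.982) and SUFU (0.963). For the levels themselves, which mainly follow the line, the nearest genes were WWTR1 for IGFBP3 (0.983), CDA for IGFBP6 (0.982), DAK for IGFBP2 (0.980), COL5A2 for IGFBP1 (0.965), SLFN11 for IGFBP4 (0.990) and ADCY6 for IGFBP5 (0.980). For the receptors and adaptors they were JAK1 for IGF1R (0.978), CTNND1 for IGF2R (0.947), AGAP1 for IRS1 (0.965) and FBXO11 for IRS2 (0.980).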

How the data were processed

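Counts of polyadenylated RNA were analysed for 24 libraries, grouped by the cell line and oxygen labels. The authors prepared the deposited counts, per the labels and methods, with Trim Galore 0.3.3, HISAT2 2.05 against GRCh37, Picard 2.0.1 and HTSeq 0.5.4p3 on UCSC genes in intersection-strict mode, so reads without a unique position or gene are not counted. The deposited counts are whole and not normalised, and their depth is 22698584 to 62850747 per library.

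Computed here with edgeR 4.0.16 in R 4.3.3 were filterByExpr, TMM factors, quasi-likelihood tests with Benjamini-Hochberg adjustment in a fit per line (adjusted p under 0.05, fold change over 1.2), and 1 fit of all libraries for interactions and normoxia levels. CPM use TMM factors over all 24 libraries, log2 CPM a prior count of 2, and RPKM the GENCODE v44lift37 canonical transcript. SE is the log2 fold change divided by the root of its F. No exon of a member overlaps another gene of the count table. Promoter sequences are from RefSeq (GRCh38.p14), gene coordinates from GENCODE (GRCh37).

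The members and the pathway list were chosen with earlier results of these data known. All 10 members are named. Of the pathway list, genes called the same way in all 4 lines, the 3 smallest interaction p values, IGF1, IGF2, INS, INSR and IGFBP7 are named, and GRB14 and SH2B1 after their values were seen. For likeness, the 2 genes with the highest r are kept, and some of these and of the marker genes are not reported here. On simulated counts of A549 cells (13916 genes), edgeR recovered 196 of 200 changed genes with 6 false calls. The simulation gave every gene the same dispersion and changed only well counted genes, all by the same factor up or down. It therefore does not describe genes at few counts, small changes or lines with a larger spread.

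Deviations of libraries with the same replicate number correlated positively in every pair of HCT-116, PC3 and T47D cells. The correlations for numbers 1, 2 and 3 were 0.341, 0.269 and 0.0878 in HCT-116 cells and 0.158, 0.119 and 0.114 in PC3 cells. They were 0.221, 0.315 and 0.267 in T47D cells, and 0.262, 0.109 and -0.0228 in A549 cells. The pairing comes from the replicate numbers in the labels, and the fit with the number as a block is an alternative. Other alternatives were DESeq2 1.42.0, RLE factors, total counts, no filter, 1 fit of all libraries, a fold change over 1.5 and each library left out. For the pathway genes these were added after the data were seen.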

Additional observations from a re-analysis of the deposited data

Results flagged for a closer look

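The change in hypoxia differed between lines for 7 of the 10 genes, by the test of the interaction of line and hypoxia in edgeR, where 18.3% of all genes tested were called. The adjusted p values were 4.87e-05 for IGFBP6, 3.16e-04 for IGFBP1, 0.0024 for IGFBP3, 0.0129 for IRS2, 0.0202 for IRS1, 0.0429 for IGF1R and 0.0457 for IGFBP4. IGFBP6 rose by 2.22 on the log2 scale in T47D cells, where its level was lowest, and by 0.43 in A549 cells. IGFBP1 rose by 3.39 in A549 cells and changed by 0.38 in PC3 cells. IGFBP3 rose by 4.74 in HCT-116 and by 1.22 in PC3 cells. IRS2, IRS1 and IGF1R had their largest changes in HCT-116 cells, at 2.24, 1.22 and 1.38. The value for IGFBP4 rests on 90 counts in the library HCT-116 hypoxia replicate 2, which also held 111 counts of ALDH1A1, and without that library its adjusted p was 1.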

How the results depend on the processing

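No alternative reversed a called value, and over 504 fitted log2 fold changes of the members the smallest was 0.08. With 1 fit of all 24 libraries, 3 members instead of 7 were upregulated in PC3 cells and 8 instead of 5 in T47D cells, and the cause was not tested. With a library left out, the count of upregulated members ranged from 1 to 7 in T47D cells (1 without normoxia replicate 1 or 2, 2 without hypoxia replicate 1, 3 without hypoxia replicate 2), where fewer libraries enter the test. The count of members whose change differed between lines ranged from 4 to 8, with 4 without HCT-116 normoxia replicate 2, PC3 normoxia replicate 2 or PC3 hypoxia replicate 1. The other counts of members stayed within 1.5 times their value under the alternatives run. Of 602 single values of the members under the other alternatives, 573 kept their call, 19 lost it and 10 gained it, and of 456 with a library left out, 376 kept it, 62 lost it and 18 gained it. The replicate block made IGF1R in PC3 cells pass (adjusted p = 0.0236) and the interactions of IGFBP2 (0.0231) and IGFBP5 (0.0310) pass, and it changed no other call of a member. Scaling to total counts shifted the median change over all genes (log2) from -0.01 to -0.13 in A549 cells and to -0.12 in T47D cells, and the upregulated share of calls from 49.8% to 33.9% and from 49.5% to 32.1%. The pathway genes were refitted under the same alternatives after the data were seen. Their count of upregulated genes was 6 instead of 19 in PC3 cells and 12 instead of 6 in T47D cells with 1 fit of all 24 libraries, and 8 in PC3 cells with a fold change over 1.5. With a library left out it ranged from 8 to 22 in PC3 and from 1 to 10 in T47D cells. The count of downregulated pathway genes in A549 cells was 1 instead of 0 with total counts and with the replicate block, and with a library left out it ranged from 0 to 1 in A549 and from 1 to 2 in HCT-116 cells. The replicate block also made STC2 in PC3 cells (0.0242) and INSR in T47D cells (0.0471) pass. The interactions of STC2, GRB10 and TRIB3 passed in every refit. Normoxia levels of single genes were not refitted with a library left out. Depth limits IGFBP1 in HCT-116 and T47D cells, IGFBP3 in T47D cells and IGFBP4 and IGFBP5 in HCT-116 cells.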
